A study of Mus musculus with 8 samples.

Results

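The SLAM receptors, their SH2-domain adaptor SAP (Sh2d1a) and another SH2-domain adaptor of T cells, TSAd (Sh2d2a), were followed in sorted mouse CD4+ T cells. The members were the 8 rows of the deposited table whose gene name is Slamf1, Slamf6, Slamf7, Cd48, Cd84, Ly9, Sh2d1a or Sh2d2a, of 52636 rows in all, and the 8 passed the minimum that 12816 rows passed (60 or more in 2 or more libraries). Libraries were made from 200000 cells each, sorted as CD4+ Foxp3+ (Tregs) or as CD4+ Foxp3- (Tconvs). Controls were CD27+/- mice, and CD70Tg mice were CD11c-Cd70tg;CD27+/- Foxp3 reporter mice, so that both genotypes carried 1 functional copy of Cd27. Each of the 4 groups had 2 libraries, which are called first and second in the order of the table. The transgene places CD70, which binds CD27, under the CD11c promoter, which is known for its activity in dendritic cells. The sample labels name the controls WT and the column labels KO, and both were taken as the CD27+/- controls that the study's methods describe. Nothing states that the libraries came from separate mice, and p-values then measure only the spread between these libraries. By the study's methods the mice were 6 to 8 weeks old. Tconvs, unlike Tregs, were purified with an antibody against CD25 in the depletion mix, which for both subsets also held antibodies against CD8β, CD11c, CD49b and MHC class II.

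The SLAM receptors are surface glycoproteins of the immunoglobulin superfamily on blood cells, and most of them bind the same receptor on a neighbouring cell. Their tails carry tyrosine switch motifs that dock the small adaptor SAP, encoded by Sh2d1a, or its relatives. SAP brings in the kinase Fyn, and the same motifs can dock phosphatases instead. Which adaptor a given receptor docks, Slamf7 included, was not tested. In CD4+ T cells the pathway is known for lasting contacts with B cells in germinal centres and for the development of NKT cells. CD48 differs from the rest, since it is held in the membrane by a lipid anchor and serves as a ligand of CD2 and of 2B4 (Cd244). TSAd, encoded by Sh2d2a, is not a SAP relative but another T cell adaptor with an SH2 domain, which binds the kinase Lck.

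The switch motifs are shown because they set apart the receptors that can dock SAP or its relatives. Codons for threonine, any residue, tyrosine, any pair of residues, then valine or isoleucine were searched in the longest complete coding sequence of each gene (GENCODE M21, GRCm38). Capitals mark the codons of threonine, of tyrosine and of valine or isoleucine.
Slamf1, first motif: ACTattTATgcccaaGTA
Slamf1, second motif: ACAgttTATgccagtGTG
Slamf6, first motif: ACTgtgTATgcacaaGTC
Slamf6, second motif: ACAattTACtccataGTT
Slamf7: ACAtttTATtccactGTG
Cd84, first motif: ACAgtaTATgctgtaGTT
Cd84, second motif: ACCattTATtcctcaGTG
Ly9, first motif: ACTccaTATgataaaGTG
Ly9, second motif: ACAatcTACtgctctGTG
Slamf1, Slamf6, Cd84 and Ly9 each held 2 such motifs and Slamf7 held 1. All 9 lay near the end of the coding sequence, where the tail is encoded, with between 5 codons (second Slamf1 motif) and 64 codons (first Ly9 motif) left before the stop. The Slamf1 motifs lie on the plus strand at chr1:171792339-171792356 and chr1:171799588-171799605, and the Slamf7 motif on the minus strand at chr1:171636327-171636344, all in coding exons. The coding sequence of Cd48 held 1 run of codons of this form, which began at codon 105 of 240, far from the stop. The adaptors Sh2d1a (126 codons) and Sh2d2a (374 codons) held 0.

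The receptor genes lie together. The 6 receptors and Cd244 were among 8 protein-coding genes in 394 kb of chromosome 1 (chr1:171559193-171953170, GRCm38), in the order Cd244, Ly9, Slamf7, Cd48, Slamf1, Cd84, Gm10521 and Slamf6. Ly9 (chr1:171588624-171607410) and Slamf7 (chr1:171632403-171653035) are on the minus strand, and Cd48 (chr1:171682009-171705258), Slamf1 (chr1:171767127-171801184), Cd84 (chr1:171839697-171890718) and Slamf6 (chr1:171917515-171953170) on the plus strand. Sh2d1a is at chrX:42502453-42529330 and Sh2d2a at chr3:87846755-87855722, both on the plus strand. The strand setting of the counting is not stated, so that reads of Sh2d1a, of whose exon length 26.6% lies over Tenm1 on the other strand, and of Slamf7, with 9.24% over the antisense gene Gm37787, cannot be told apart from reads of those genes there. No exon of the other 6 members overlapped an exon of another gene.

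The promoters of Slamf7 and Slamf1 are shown because these receptors differed most between groups. RefSeq promoter windows (GRCm38.p6) matched 5 of the 8 members, Slamf7, Cd48, Slamf1, Cd84 and Slamf6, and the 250 bases before the start site were read on both strands. Capitals mark a match to 1 of 4 short motifs, which were chosen with the windows in view.
Slamf7, minus strand, chr1:171649000-171649249: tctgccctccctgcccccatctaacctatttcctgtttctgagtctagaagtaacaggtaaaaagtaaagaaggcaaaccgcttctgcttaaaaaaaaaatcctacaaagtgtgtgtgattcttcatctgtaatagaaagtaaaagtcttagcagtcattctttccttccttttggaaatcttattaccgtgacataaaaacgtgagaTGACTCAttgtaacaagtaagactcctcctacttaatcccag
Slamf1, plus strand, chr1:171766882-171767131: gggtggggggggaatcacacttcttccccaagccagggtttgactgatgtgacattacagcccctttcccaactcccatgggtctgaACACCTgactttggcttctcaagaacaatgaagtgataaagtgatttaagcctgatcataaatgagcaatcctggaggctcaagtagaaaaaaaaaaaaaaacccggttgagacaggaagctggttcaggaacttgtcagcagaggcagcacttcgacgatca
The AP-1 motif TGACTCA began 42 bases before the RefSeq start in Slamf7 and was also in Cd84. It is in 4.46% of 32851 promoter windows. The Slamf7 window lies inside the gene as placed by GENCODE (chr1:171632403-171653035), which puts its start further upstream. The T-box core AGGTGT was found on the minus strand in Slamf1, beginning 163 bases before the start, and on the plus strand in Cd84, and is in 11.8% of the windows. The interferon response core, TTTC repeated after any 2 bases (2.98% of windows), and an NF-kB form, GGGA and TTCC with any 2 bases between (1.21%), matched 0 of the 5. These matches describe the letters of the windows only.

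The deposited values are reads per gene scaled to 20 M per library and rounded up, so that 20 stands for 1 read per M. Low values come in steps of what 1 read is worth in that library, and from these steps 6.9 to 33.13 M reads on genes stood behind the Tconv and 1.9 to 4.52 M behind the Treg libraries. The numbers for the first control and the second CD70Tg Tconv library are less certain, because 1 read there is worth about 1 or less. Slamf7 in Tregs rested on 37 to 76 reads per library, and every other member on at least 132 reads in each library. Foxp3, the factor that defines Tregs, was 19769 to 21367 in the Treg and 1039 to 1497 in the Tconv libraries, and Cd4 lay between 16100 and 31244 throughout. Cd70 in the sorted cells was 0 to 9 in the control and 11 to 44 in the CD70Tg libraries, and its source was not tested. The second CD70Tg Tconv library stands apart in depth, and 8 of the 8 members were higher in it than in the first, as were 73.9% of the genes tested. Its median-of-ratios size factor was 1.062, against 0.945 for the first, and the cause was not tested.

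Per kb of exons, Cd48 was the most abundant member in every group. In control Tconvs it reached 3302 ± 115 per kb (SD, n = 2), followed by Ly9 (CD229) at 1672 ± 61.4 per kb and Sh2d2a at 937 ± 64.5 per kb. Cd84 stood at 489 ± 8.79 per kb, Slamf6 (Ly108) at 357 ± 49.0 per kb and Sh2d1a at 317 ± 22.7 per kb. The libraries of the last pair overlapped, so that their order is not resolved. Slamf1 (SLAM, CD150) at 110 ± 0.23 per kb and Slamf7 (CRACC) at 69.0 ± 12.4 per kb were lowest, without overlap. In control Tregs the first 4 places were the same, and Slamf6, Sh2d1a and Slamf1 came close together at 349 ± 31.5, 342 ± 8.22 and 321 ± 3.10 per kb. In CD70Tg Tconvs Slamf7 rose to 224 ± 85.4 per kb and could not be ordered against Slamf1 at 195 ± 90.6 per kb. In CD70Tg Tregs Slamf6 at 439 ± 15.4 per kb passed Cd84 at 369 ± 11.0 per kb, and their libraries did not overlap. Among the 12791 tested genes with an exon length, Cd48 stood at percentile 97.3 to 98.0 and Slamf7 in Tregs at percentile 21.7 in controls and 31.2 in CD70Tg mice. Exon lengths join all annotated exons of a gene, from 1189 bases for Cd48 to 10832 for Slamf6, so these orders rest on that annotation.

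**Figure D1:**
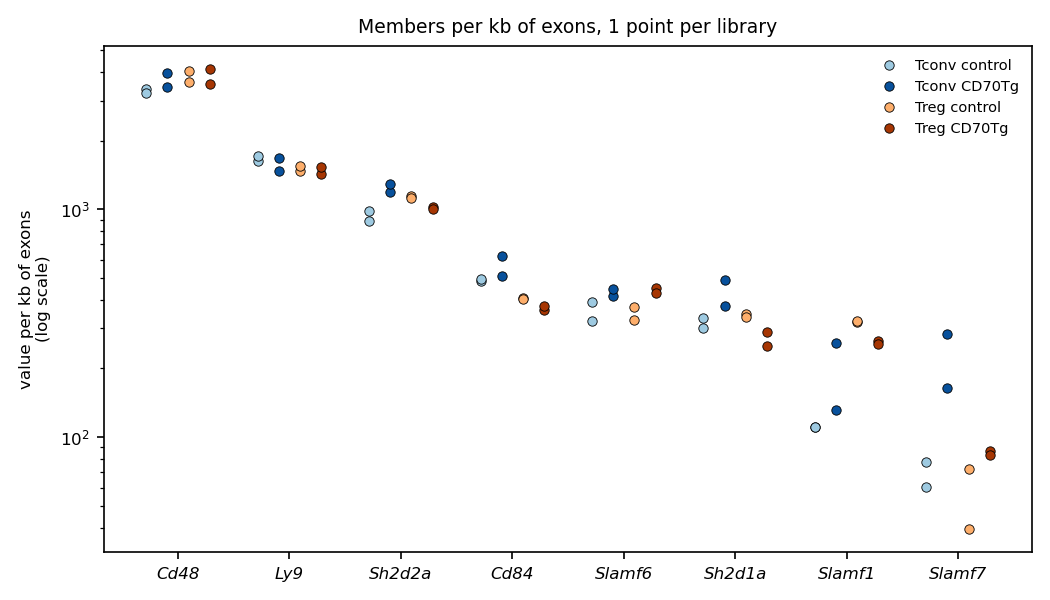
Value per kb of exons of each member on a log scale, with 1 point per library and colours for the 4 groups. Cd48 lies above the other members throughout, and the Slamf7 and Slamf1 points of CD70Tg Tconvs are interleaved.

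Whether CD70 changed the members in Tconvs was read from the 2 CD70Tg against the 2 control libraries. Slamf7, Slamf1 and Sh2d2a rose, which is 3 of the 8 members at an adjusted p-value under 0.05 (limma on log2(value + 5), Benjamini-Hochberg over all tested genes), where 8.81% of all genes were called and 6.82% rose. Slamf7 alone also passed 2-fold, as 4.65% of all genes did. For 7 of the 8 members both CD70Tg libraries lay above both controls, as for 23.7% of all genes, and the median member differed by 0.34 on the log2 scale against 0.01 for all genes. The count of called members was 1 (Slamf7) without the second control, the second CD70Tg Tconv or either CD70Tg Treg library, and 4 without the first CD70Tg Tconv library. In bulk samples, more cells that express a gene and more RNA per cell cannot be told apart.

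Slamf7, a receptor known from NK cells, plasma cells and cytotoxic T cells, was 276 and 356 in control Tconvs and 750 and 1303 in CD70Tg Tconvs. Both CD70Tg libraries were more than double the higher control. It rose 3.12-fold (95% interval 2.07 to 4.70, log2 fold change 1.64 ± 0.28 SE, adjusted p = 0.00089). The value stayed between 1.25 and 2.04 over the 18 alternatives, and the call was lost only where no minimum value was asked of genes (adjusted p = 0.076). Leaving out the second CD70Tg library gave the 1.25.

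Slamf1, the self-binding receptor after which the family is named, was 680 and 678 in control Tconvs and 807 and 1596 in CD70Tg Tconvs. The first CD70Tg library was only a little above the controls, and the second more than double. The log2 fold change was 0.74 ± 0.21 (adjusted p = 0.037) with both, 0.25 (adjusted p = 0.43) without the second CD70Tg library and 1.23 (adjusted p = 2.5e-05) without the first. The call was also lost without the first or the second control library (adjusted p = 0.093 and 0.11) and without the first or the second CD70Tg Treg library (adjusted p = 0.053 and 0.054), with the value at 0.74 in these. The increase of Slamf1 thus rests on the deeper CD70Tg library.

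Among the adaptors, Sh2d2a was 5837 and 5295 in control Tconvs and 7062 and 7633 in CD70Tg Tconvs. The groups did not overlap, and the log2 fold change was 0.40 ± 0.11 (adjusted p = 0.028). Its size moved little when libraries were left out, to 0.33 (adjusted p = 0.21) without the second control and 0.34 (adjusted p = 0.14) without the second CD70Tg library. The call went in both, and also without any 1 of the 4 Treg libraries (0.40, adjusted p = 0.055 to 0.057), which share the estimate of the spread. Sh2d1a, the gene of SAP itself, was 1831 and 1654 in control and 2063 and 2697 in CD70Tg Tconvs. It missed the threshold at 0.44 ± 0.14 (adjusted p = 0.064), and was 0.24 (adjusted p = 0.44) without the second and 0.63 (adjusted p = 0.0073) without the first CD70Tg library.

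The other 4 receptors differed by less. Slamf6, a self-binding receptor of T cells and B cells, was 4239 and 3489 in control and 4484 and 4813 in CD70Tg Tconvs (log2 fold change 0.27, 95% interval 0.01 to 0.53, adjusted p = 0.23). Cd84, another self-binding receptor, was 3030 and 3108 against 3184 and 3912 (0.20, -0.05 to 0.46, adjusted p = 0.41). Cd48 was 4023 and 3830 against 4077 and 4717 (0.16, -0.10 to 0.42, adjusted p = 0.56). For these receptors the first CD70Tg library lay close to the higher control, and the intervals leave room for increases of up to about 1.33-fold (Cd48) to 1.44-fold (Slamf6). Ly9 was the only member whose groups overlapped, at 5386 and 5673 against 4884 and 5528 (-0.09, -0.33 to 0.15, adjusted p = 0.77).

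**Figure D2:**
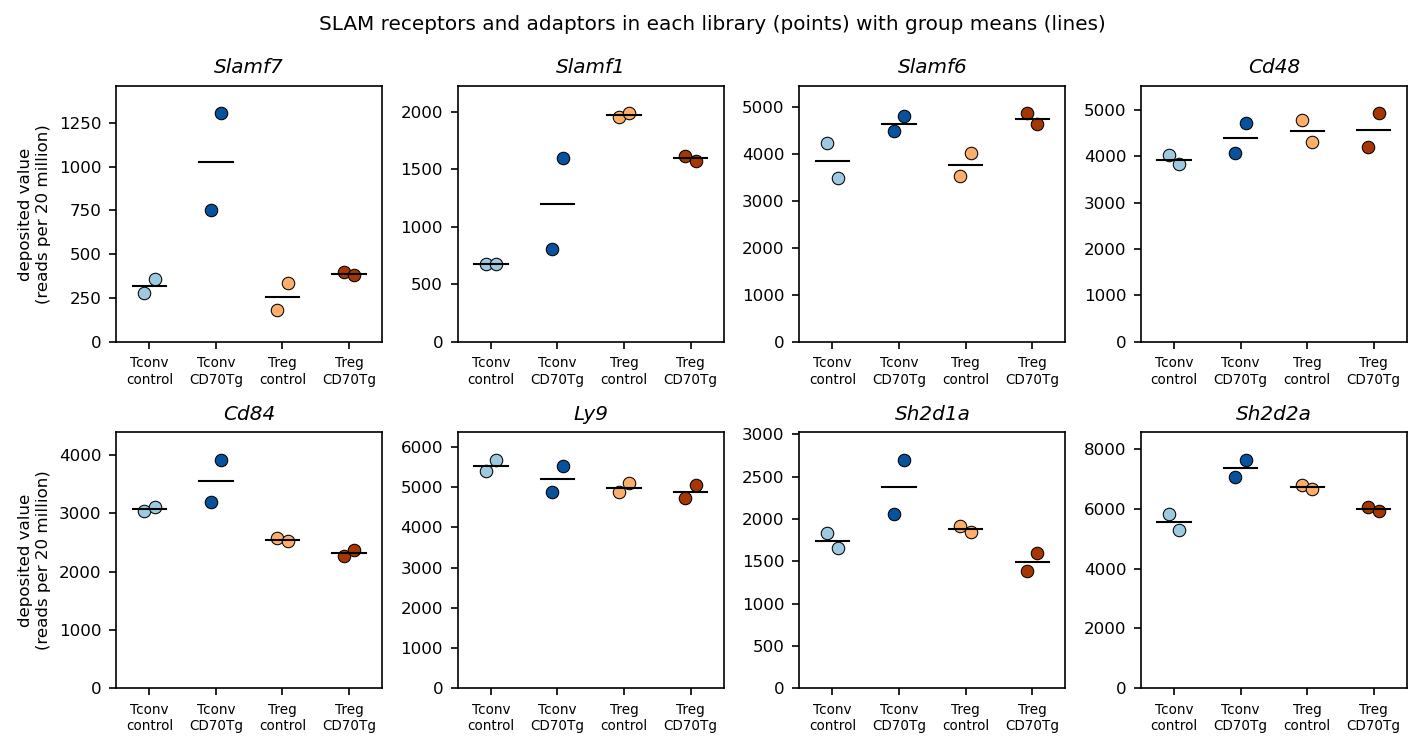
Deposited value of each member (reads per 20 M, axes from 0) in the 8 libraries, with points for libraries and lines for group means. The 2 CD70Tg Tconv points of Slamf7, Slamf1 and Sh2d1a lie far apart, and those of Slamf7 (750 and 1303) are above every other library.

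In Tregs, 0 of the 8 members were called between CD70Tg and control mice with limma or limma-voom, against 7.4% of all genes tested, none past 2-fold (3.6%), and 3 had an unadjusted p-value under 0.05, against 21.6%. The median member differed by -0.08 on the log2 scale and all genes by -0.05. In 6 of the 8 members the groups did not overlap, as for 53.7% of all genes. Slamf6 and Slamf7 lay higher in CD70Tg Tregs, Slamf1, Cd84, Sh2d1a and Sh2d2a lower, and Cd48 and Ly9 overlapped.

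Slamf6 was 3538 and 4020 in control Tregs and 4869 and 4633 in CD70Tg Tregs. Its log2 fold change of 0.33 ± 0.12 (adjusted p = 0.11) passed the threshold under median-of-ratios scaling (0.37, adjusted p = 0.047) and with the Treg libraries fitted alone (adjusted p = 0.023). Slamf7 was 180 and 333 in control and 398 and 381 in CD70Tg Tregs, with 0.66 ± 0.28 (adjusted p = 0.18). The low first control library decides that value, which was 0.22 (adjusted p = 0.82) without it and 1.09 (adjusted p = 0.053) without the second control. These Slamf7 values stand for 37 and 76 reads in controls and 38 and 70 reads in CD70Tg Tregs.

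Sh2d1a was 1912 and 1848 in control Tregs and 1380 and 1594 in CD70Tg Tregs, opposite in sign to Tconvs. The log2 fold change was -0.34 ± 0.14 (95% interval -0.64 to -0.05, adjusted p = 0.16), and with the Treg libraries fitted alone the same value was called (adjusted p = 0.049). Slamf1 was 1961 and 1988 against 1620 and 1577 (-0.30 ± 0.21, adjusted p = 0.44), a close pair in each group. Sh2d2a was 6779 and 6651 against 6061 and 5932 (-0.16 ± 0.11, adjusted p = 0.42). Cd84 was 2567 and 2522 against 2268 and 2366 (-0.14 ± 0.12, adjusted p = 0.57). Cd48 at 4785 and 4313 against 4211 and 4927 and Ly9 at 4877 and 5093 against 4723 and 5052 had intervals of -0.25 to 0.26 and -0.27 to 0.21.

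**Figure D3:**
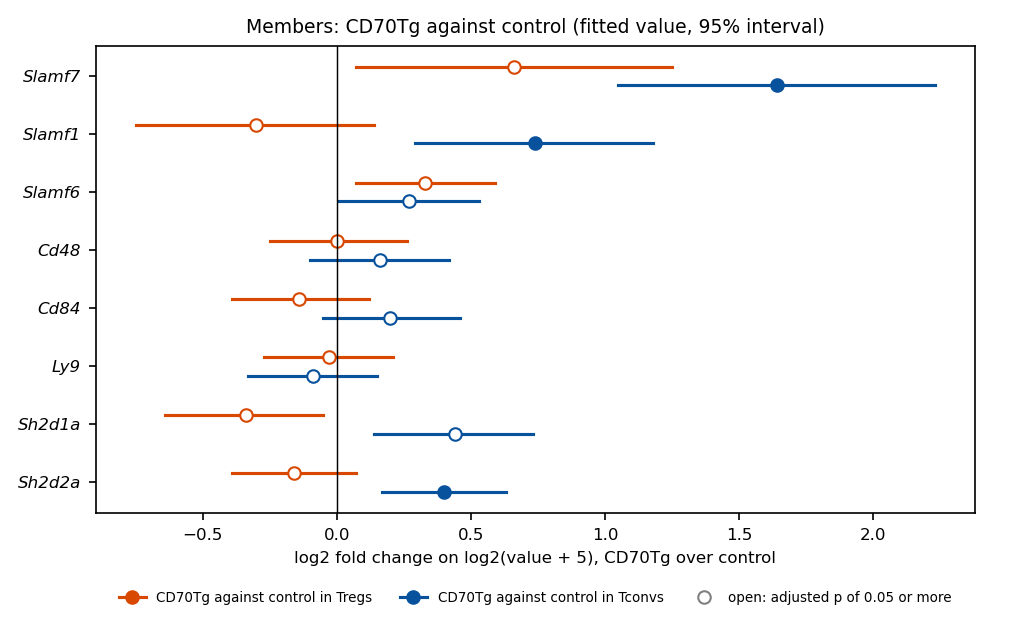
Fitted log2 fold change of each member, CD70Tg over control, in Tregs and Tconvs, with 95% intervals and filled points for an adjusted p under 0.05. In Tconvs 3 points are filled (Slamf7, Slamf1, Sh2d2a) and in Tregs 0, and Slamf1, Cd84, Sh2d1a and Sh2d2a lie on opposite sides of 0 in the 2 subsets.

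The difference between these responses, that of Tregs minus that of Tconvs, was tested in the same model. No member passed (0 of 8 with limma or limma-voom, against 1.02% of all genes), and 4 had an unadjusted p-value under 0.05, against 10.7%. The median difference was -0.45 for the members and -0.08 for all genes. The 4 were Slamf1 (-1.04 ± 0.30, adjusted p = 0.13), Sh2d1a (-0.78 ± 0.20, adjusted p = 0.083), Sh2d2a (-0.56 ± 0.15, adjusted p = 0.12) and Slamf7 (-0.98 ± 0.39, adjusted p = 0.36). Without the first CD70Tg Tconv library the first 3 passed, Slamf1 at -1.53 (adjusted p = 0.00023), Sh2d1a at -0.97 (adjusted p = 0.0087) and Sh2d2a at -0.62 (adjusted p = 0.048). Without the second the values were smaller, at -0.55 (adjusted p = 0.27) for Slamf1, -0.59 (adjusted p = 0.24) for Sh2d1a, -0.51 (adjusted p = 0.22) for Sh2d2a and -0.59 (adjusted p = 0.65) for Slamf7. Slamf7 also went to -0.55 (adjusted p = 0.84) without the second control Treg library. For Slamf6, whose values lay higher in both subsets, the difference was 0.06, with a 95% interval of -0.31 to 0.43. That a member was called in Tconvs and not in Tregs therefore does not show that the subsets responded differently.

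In control mice 1 member was called between the subsets. Slamf1 was higher in control Tregs, at 1961 and 1988, than in control Tconvs, at 680 and 678, or 2.89-fold (95% interval 2.12 to 3.95, adjusted p = 2.4e-05), and the call held in the fit as described and in all 18 alternatives. This is 1 of 8 members, both at any fold and past 2-fold, where 45.8% and 19.2% of all genes were called. The groups did not overlap for 6 of the 8 members, against 76.2% of all genes. Just under the threshold were Sh2d2a (0.27 ± 0.11, higher in Tregs, adjusted p = 0.052) and Cd84 (-0.27 ± 0.12, lower in Tregs, adjusted p = 0.077). The others had log2 fold changes of -0.35 (Slamf7) to 0.21 (Cd48). The median member differed by 0.04 on the log2 scale and all genes by 0.07. Without the first or without the second CD70Tg Tconv library, which enter only through the spread, 3 members were called. The contrasts between subsets share their libraries with the CD70Tg contrasts above.

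In CD70Tg mice Slamf7, Sh2d1a, Cd84 and Sh2d2a were lower in Tregs than in Tconvs. These were 4 of 8 members at any fold and 1 past 2-fold, where 42.7% and 17.2% of all genes were called and 20.1% were lower. Their groups did not overlap, as for 69.2% of all genes, and the median member differed by -0.19 on the log2 scale and all genes by -0.02. Slamf7, at 398 and 381 in Tregs and 750 and 1303 in Tconvs, had the largest difference (-1.33 ± 0.28, adjusted p = 0.0013). Sh2d1a, at 1380 and 1594 against 2063 and 2697, followed with -0.67 ± 0.14 (adjusted p = 0.0013), and Cd84, at 2268 and 2366 against 3184 and 3912, with -0.61 ± 0.12 (adjusted p = 0.00081). These 3 were called in each of the 18 alternatives too, although Slamf7 fell to -0.94 and so below 2-fold without the second CD70Tg Tconv library. Sh2d2a (-0.29 ± 0.11, adjusted p = 0.041) was called in 11 of the 18 alternatives. Its adjusted p rose to 0.13 without the second CD70Tg Tconv library, to 0.13 and 0.16 without the first and the second CD70Tg Treg library (-0.31 and -0.28) and to 0.069 without either control Treg library. Slamf1 was now at 1620 and 1577 in Tregs against 807 and 1596 in Tconvs, and the groups overlapped (0.49 ± 0.21, adjusted p = 0.071). Its difference was 0.98 (adjusted p = 0.00011) without the second CD70Tg Tconv library and 0.00 (adjusted p = 0.99) without the first.

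**Figure D4:**
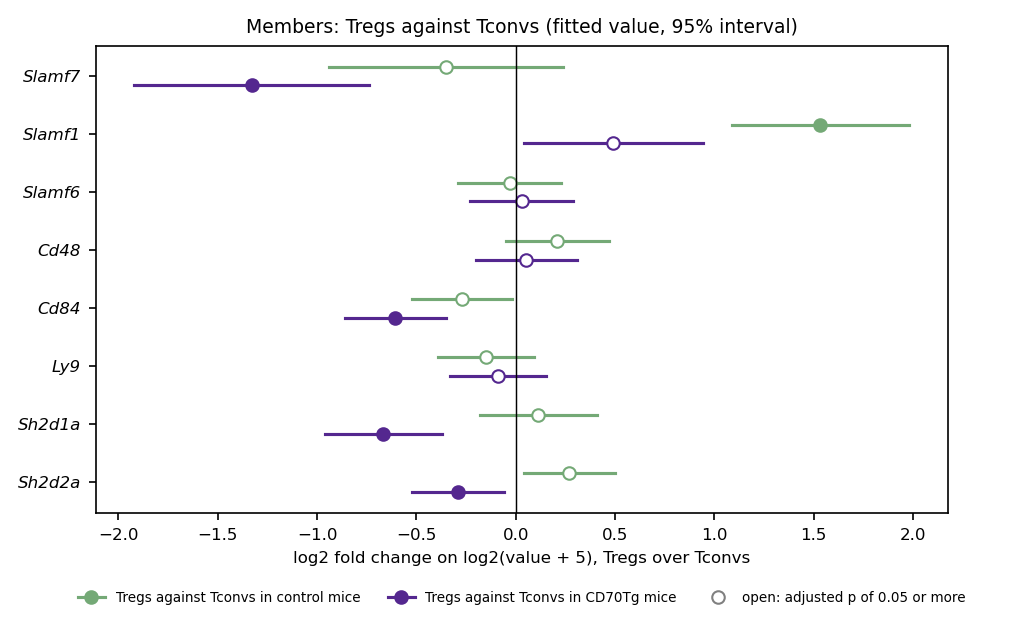
Fitted log2 fold change of each member, Tregs over Tconvs, in control and in CD70Tg mice, with 95% intervals and filled points for an adjusted p under 0.05. In control mice Slamf1 (1.53) is the filled point, and in CD70Tg mice Slamf7 (-1.33), Cd84 (-0.61), Sh2d1a (-0.67) and Sh2d2a (-0.29) are.

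Taken as shares of the summed receptor level per kb, Cd48 made up 54.2 to 61.0% and Ly9 22.4 to 28.9% in every library. The sum itself was 6000 ± 81.4 per kb in control Tconvs, 6687 ± 798 in CD70Tg Tconvs, 6465 ± 181 in control Tregs and 6473 ± 484 in CD70Tg Tregs (SD, n = 2). The share of Slamf7 in Tconvs was 0.996 and 1.31% in controls and 2.68 and 3.93% in CD70Tg mice. In Tregs it was 0.597 and 1.15% in controls and 1.42 and 1.22% in CD70Tg mice. The share of Slamf1 was 1.82 and 1.85% in control Tconvs and 2.14 and 3.58% in CD70Tg Tconvs, and 4.83 and 5.10% against 4.29 and 3.76% in Tregs. Per kb of annotated exons, more of the receptor level of each group was thus that of the anchored ligand CD48 than of all receptors with switch motifs. In deposited values, not divided by length, Ly9 lay above Cd48 in every library.

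The partners of CD48 and the remaining family members were mostly near the limit of detection. Cd2, the T cell adhesion receptor that binds CD48, was 10335 and 11486 in control and 11496 and 11471 in CD70Tg Tconvs. In Tregs it was 14829 and 13941 in control and 17125 and 18884 in CD70Tg mice (0.32 ± 0.12, adjusted p = 0.11), and it was higher in Tregs than in Tconvs of controls (0.40, adjusted p = 0.011) and of CD70Tg mice (0.65, adjusted p = 0.00038). The call in controls was lost without the first control Tconv library (0.32, adjusted p = 0.09), without the first control Treg library (0.36, adjusted p = 0.092) and with median-of-ratios scaling (0.33, adjusted p = 0.071). Cd244, the gene of 2B4, was 8 and 9 in control Tconvs and 47 and 54 in CD70Tg Tconvs, values under the minimum of 60 that rest on 8, 4, 16 and 90 reads. Both CD70Tg libraries lay several times above both controls, and with no minimum value the log2 fold change was 2.04 (95% interval 0.99 to 3.08, adjusted p = 0.091). In Tregs Cd244 was 25 and 22 in control and 21 and 44 in CD70Tg mice, or 2 to 8 reads. Slamf8 lay between 7 and 42 and Slamf9 between 0 and 11. Of the relatives of SAP, Sh2d1b1 (EAT-2) lay between 6 and 33, on at most 13 reads, and Sh2d1b2 between 0 and 11, on at most 2 reads. With no minimum value none of Slamf9, Sh2d1b1 and Sh2d1b2 was called in any of the 5 contrasts. Their lowest adjusted p-values were 0.059 for Sh2d1b1 and 0.065 for Sh2d1b2, both between the subsets of CD70Tg mice and on the few reads given, and 0.066 for Sh2d1b2 between CD70Tg and control Tregs. Slamf8 was not called either, with a lowest adjusted p of 0.066 between the subsets of control mice.

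Of 19 signalling partners of the receptors and adaptors, none passed 2-fold with CD70. In Tregs 1 rose and 2 fell, and in Tconvs 1 rose and 1 fell, so that 3 of 19 and 2 of 19 were called beside the 7.4% and 8.81% of all genes. Pik3r1, the regulatory subunit of PI3 kinase, fell in both subsets. It was 3834 and 3928 in control and 3063 and 2415 in CD70Tg Tconvs (-0.51 ± 0.12, adjusted p = 0.012), and 5440 and 5679 in control and 3386 and 3377 in CD70Tg Tregs (-0.72 ± 0.12, adjusted p = 0.0017). Dok1, an adaptor that dampens Ras, rose in Tregs from 1155 and 1152 to 1986 and 1887 (0.74 ± 0.20, adjusted p = 0.030). Prkcq, the protein kinase C of the T cell synapse, fell there from 8613 and 7680 to 5590 and 5824 (-0.51 ± 0.11, adjusted p = 0.0093). Rasa1, a GTPase-activating protein of Ras, rose in Tconvs from 765 and 852 to 1101 and 1216 (0.52 ± 0.13, adjusted p = 0.017).

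The groups of these genes did not overlap, and the directions held whichever library was left out, but most of the calls did not. Pik3r1 in Tregs was called in every fit. In Tconvs its call was lost without the second control (-0.49, adjusted p = 0.064), without the second CD70Tg library, where the value was -0.34 (adjusted p = 0.13), and with the Tconv libraries fitted alone (adjusted p = 0.052). The call of Dok1 was lost without any 1 of the 4 Treg libraries (0.71 to 0.78, adjusted p = 0.1 to 0.17) and with limma-voom (0.74, adjusted p = 0.17). That of Prkcq was lost without the first control (-0.43, adjusted p = 0.18), the first CD70Tg (-0.48, adjusted p = 0.1) or the second CD70Tg Treg library (-0.54, adjusted p = 0.056). That of Rasa1 was lost without the first control (0.44, adjusted p = 0.12), without the second CD70Tg Tconv library (0.45, adjusted p = 0.11) and with the Tconv libraries fitted alone (adjusted p = 0.074).

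Fyn, the kinase that SAP recruits, was 8701 and 7776 in control and 9773 and 11719 in CD70Tg Tconvs. In Tregs it was 9652 and 9633 in control and 8129 and 6699 in CD70Tg mice. As for Sh2d1a, both CD70Tg libraries lay above the controls in Tconvs (0.38 ± 0.13, adjusted p = 0.085) and below them in Tregs (-0.39 ± 0.13, adjusted p = 0.082). The difference of these responses was -0.77 ± 0.18 (adjusted p = 0.060). None of the 3 passed. Without the first CD70Tg Tconv library all 3 did (0.51, adjusted p = 0.021 in Tconvs, -0.39, adjusted p = 0.039 in Tregs and -0.90, adjusted p = 0.012 for the difference). Without the second, the value in Tregs passed (adjusted p = 0.04), and without the first control Tconv library the difference did (-0.85, adjusted p = 0.038). The values were smaller without other libraries, at 0.25 (adjusted p = 0.41) in Tconvs without the second CD70Tg Tconv library, -0.25 (adjusted p = 0.46) in Tregs without the second CD70Tg Treg library and -0.63 for the difference without either of these (adjusted p = 0.17 and 0.23). With all libraries, Fyn passed in Tconvs with limma-voom (0.39, adjusted p = 0.027), in Tregs with the Treg libraries fitted alone (adjusted p = 0.012) and for the difference with a pseudocount of 20 (-0.76, adjusted p = 0.047). Between the subsets in CD70Tg mice Fyn was lower in Tregs (-0.54 ± 0.13, adjusted p = 0.0034), as was Lck, the kinase that TSAd binds (-0.66, adjusted p = 0.00038). Lck (-0.50, adjusted p = 0.0027) was lower in Tregs of control mice too, and Fyn was not called there (0.23, adjusted p = 0.16). The call of Fyn in CD70Tg mice was lost without the second CD70Tg Treg library (-0.40, adjusted p = 0.071), and that of Lck in controls with quantile normalization (-0.29, adjusted p = 0.12).

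**Figure D5:**
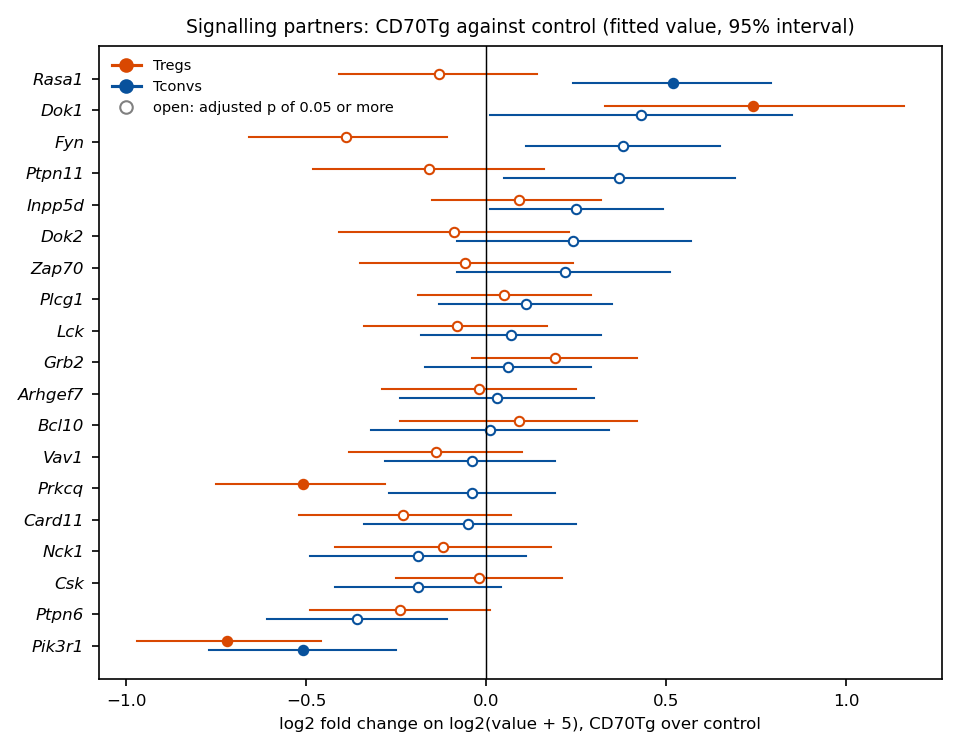
Fitted log2 fold change of 19 signalling partners, CD70Tg over control, in Tregs and Tconvs, with 95% intervals and filled points for an adjusted p under 0.05. Pik3r1 is filled in both subsets, Dok1 and Prkcq in Tregs and Rasa1 in Tconvs.

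Of 9 genes of the follicular helper and NKT lineages, in which SAP is needed, 8 passed the minimum value. In Tregs 2 rose, and in Tconvs 2 rose and 2 fell, beside the 7.4% and 8.81% of all genes called. Those that rose in Tregs were Eomes and Tbx21, which are known from type 1 cells, and none of the follicular helper genes Bcl6 (-0.55), Cxcr5 (-0.64), Icos (-0.35) and Pdcd1 (0.01) was called there (adjusted p = 0.16 to 0.99). Eomes, a T-box factor of type 1 and cytotoxic cells, rose in both (4.09 ± 0.19, adjusted p = 2.2e-09 in Tregs; 3.33 ± 0.19, adjusted p = 4.2e-09 in Tconvs). Tbx21, which encodes T-bet, rose in Tregs from 296 and 250 to 607 and 735 (1.28 ± 0.31, adjusted p = 0.019). In Tconvs it was 819 and 635 in control and 848 and 2368 in CD70Tg mice (0.97 ± 0.31, adjusted p = 0.066), so that the same library that was high in Slamf1, Slamf7 and Sh2d1a was high in Tbx21. Pdcd1, which encodes PD-1, rose in Tconvs from 1867 and 547 to 3812 and 5157 (2.13 ± 0.34, adjusted p = 0.00047), and was 3.01 (adjusted p = 6.4e-10) without the first and 1.25 (adjusted p = 5.2e-05) without the second control Tconv library. Zbtb16, the NKT cell factor PLZF, fell in Tconvs from 119 and 151 to 29 and 19 (-2.28 ± 0.58, adjusted p = 0.018), and Bcl6, the factor of follicular helper cells, from 1008 and 555 to 389 and 451 (-0.83 ± 0.22, adjusted p = 0.026). The call of Tbx21 in Tregs was lost without any 1 of the 4 Treg libraries (1.14 to 1.42, adjusted p = 0.063 to 0.12) and with limma-voom (1.33, adjusted p = 0.43). In Tconvs it passed without the first CD70Tg library (1.71, adjusted p = 6.5e-05) and with limma-voom (1.15, adjusted p = 0.033), and was 0.23 (adjusted p = 0.68) without the second CD70Tg library. Bcl6 was at -0.40 (adjusted p = 0.43) without the first control Tconv library, and its call was also lost without either CD70Tg library (adjusted p = 0.1 without the first and 0.07 without the second). The call of Zbtb16 was lost without either control or without the second CD70Tg Tconv library (-2.45 to -2.03, adjusted p = 0.087 to 0.19) and with a pseudocount of 1 (-2.46, adjusted p = 0.2). The first control Tconv library stood apart from the second in Cxcr5 (2805 and 881), Il21 (493 and 74) and Pdcd1, while its Slamf1 (680 and 678), Slamf6 (4239 and 3489) and Sh2d1a (1831 and 1654) differed by much less.

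Other blood cells also carry SLAM receptors, and their markers were read beside the members. The summed CD8 markers (2 of 2 tested) were 681 to 720 in control and 1563 to 1590 in CD70Tg Tconvs, and 317 to 417 and 631 to 660 in Tregs. The sum lay higher with CD70 in both subsets. Most of the change relative to controls was in Cd8a, which rose from 17 and 28 to 508 and 608 in Tconvs (20.8-fold, adjusted p = 9.8e-07) and from 25 and 71 to 262 and 223 in Tregs (5.17-fold, adjusted p = 0.0012). The latter, a log2 fold change of 2.37, was 1.70 (adjusted p = 0.021) without the first and 3.04 (adjusted p = 0.0002) without the second control Treg library. Cd8b1 rose 1.5-fold in Tconvs, from 703 and 653 to 1055 and 982 (log2 fold change 0.58, adjusted p = 0.038), a call that was lost without any 1 of the 4 Tconv libraries (0.53 to 0.64, adjusted p = 0.1 to 0.23) and without the second control Treg library (adjusted p = 0.051). In Tregs it was 292 and 346 against 398 and 408 (adjusted p = 0.26). The sum of the 6 NK cell markers, of which 3 passed the minimum, was 659 to 823 in control and 275 to 394 in CD70Tg Tconvs, and 45 to 69 and 11 to 17 in Tregs. Of the 3, Klrb1c fell in Tconvs, from 403 and 423 to 75 and 68 (log2 fold change -2.45, adjusted p = 0.0028), and in Tregs, from 64 and 36 to 0 and 11 (adjusted p = 0.0035, and 0.053 without the first control Treg library). Klrd1 and Klrk1 were present but not called in Tconvs, at 129 and 180 against 104 and 153 (adjusted p = 0.84) and at 113 and 199 against 90 and 153 (adjusted p = 0.8). In Tregs these 2 stood at 0 to 11 and were not called (adjusted p = 0.075 and 0.14), but passed in opposite directions with a pseudocount of 1 (adjusted p = 0.0083 for Klrd1, higher with CD70, and 0.017 for Klrk1, lower). Ncr1, which encodes the NK cell receptor NKp46, and Klra8 were at 0 to 2 in every library. The 7 B cell markers (3 passed) summed to 272 to 371 in control and 177 to 283 in CD70Tg Tconvs, and to 390 to 519 and 484 to 498 in Tregs, with Pax5 at 0 to 48. Cd79b was higher in Tregs than in Tconvs of control (3.34-fold, adjusted p = 0.00044) and of CD70Tg mice (5.63-fold, adjusted p = 1.9e-05). In CD70Tg mice Cd79a was also higher in Tregs (3.79-fold, adjusted p = 0.00084), and Cd22 was lower (0.356-fold, adjusted p = 0.0079). The 9 markers of macrophages, monocytes and dendritic cells (7 passed) summed to 1860 to 2252 in control and 1591 to 2533 in CD70Tg Tconvs, and to 3557 to 4060 and 5165 to 5406 in Tregs, with Cd14 at 3 to 53. Of the 7, 3 were called higher in Tregs than in Tconvs of controls, Adgre1 (5.93-fold), Mpeg1 (3.44-fold) and Csf1r (3.08-fold). In CD70Tg mice 6 of the 7 were. Of all genes 45.8% and 42.7% were called in these contrasts, in either direction. Of these 7, 2 rose and 1 fell with CD70 in Tregs, where 7.4% of all genes were called. H2-Ab1 rose from 287 and 548 to 1432 and 1528 (3.69-fold, adjusted p = 0.0027), Itgam from 146 and 198 to 377 and 381 (2.19-fold, adjusted p = 0.013), and Csf1r fell from 1500 and 1205 to 930 and 762 (0.628-fold, adjusted p = 0.029). In Tconvs, where 8.81% of all genes were called, 1 rose and 1 fell. Itgax, the gene of CD11c, rose from 31 and 57 to 101 and 236 (3.38-fold, adjusted p = 0.015) and was highest in the library in which Slamf7 was highest, and Itgam fell from 178 and 166 to 93 and 80 (0.516-fold, adjusted p = 0.027). Each of these calls was lost without at least 1 library, all of those in Tregs without the first control Treg library (H2-Ab1 1.42, adjusted p = 0.053, Itgam 0.92, adjusted p = 0.19, Csf1r -0.51, adjusted p = 0.35, on the log2 scale). Both in Tconvs were lost without the first control Tconv library (Itgax 1.37, adjusted p = 0.15, Itgam -0.91, adjusted p = 0.16) and without the second CD70Tg Tconv library (Itgax 1.17, adjusted p = 0.26, Itgam -0.85, adjusted p = 0.15). Itgam in Tconvs was also lost without the second control Tconv library (adjusted p = 0.12), and Itgam and Csf1r in Tregs without either CD70Tg Treg library (adjusted p = 0.052 to 0.2), Csf1r also without the second control Treg library (adjusted p = 0.056). The 5 plasma cell markers (2 passed, Irf4 and Xbp1, which T cells also express) summed to 2003 to 2400 and 2439 to 2823 in Tconvs and to 3990 to 4472 and 3053 to 3150 in Tregs, with Sdc1 at 0 to 36. Of the 2, Irf4 was called in Tconvs, at 808 and 413 in control and 899 and 1045 in CD70Tg mice (log2 fold change 0.74, adjusted p = 0.04), but not without the second control (0.26, adjusted p = 0.54) or the second CD70Tg Tconv library (0.63, adjusted p = 0.25) or any 1 of the 4 Treg libraries (adjusted p = 0.05 to 0.054). It was 1.22 (adjusted p = 6.3e-05) without the first control Tconv library. In Tregs Irf4 lay lower with CD70, at 2267 and 2194 in control and 1484 and 1354 in CD70Tg mice (-0.65, adjusted p = 0.077), and it passed with the Treg libraries fitted alone (adjusted p = 0.00049) and without the first or the second control Tconv library (adjusted p = 0.0056 and 0.005). The part of such cells in the members' values was not tested.

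Across the 8 libraries, Pearson correlations of the members' log2(value + 5) ran from -0.48 (Slamf1 with Ly9) to 0.83 (Cd84 with Sh2d1a). The 2 adaptors went together at 0.78, as did Slamf1 and Cd48, while Slamf1 and Slamf7, which both rose in Tconvs, were at -0.07. These points share libraries, depth and group, and are given as a description. The genes whose pattern over the 8 libraries was most like that of Slamf7 were Ctla2b (0.982), Dapk2 (0.978) and Itga1 (0.977), the integrin chain of VLA-1. Itga1 was 24 and 30 in control and 122 and 294 in CD70Tg Tconvs, and 10 and 18 against 32 and 49 in Tregs. Like Slamf7 it was highest in the second CD70Tg Tconv library, which comes with the choice by likeness. Dapk2 was 9 and 21 against 202 and 326 in Tconvs, and 0 and 9 against 21 and 33 in Tregs.

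Along the receptor cluster, the neighbours of Slamf7 were not called. Ly9, on the side of Cd244, differed by -0.09 in Tconvs, and Cd48, on the other side, by 0.16, beside 1.64 for Slamf7. Of the 7 tested genes of the cluster, Slamf7 and Slamf1, which have Cd48 between them, were called with CD70 in Tconvs.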

How the data were processed

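Sorted Tregs and Tconvs of CD27+/- and CD11c-Cd70tg;CD27+/- mice gave 8 libraries, 2 per group. Per the labels, Trimmomatic 0.36 took off adapters, STAR 2.5.3 placed reads on mm10 and HTSeq 0.9.1 counted them. The deposited score values are read counts that the authors scaled to 20 M per library and rounded up, and library totals lie between 19963628 and 20164600. Columns were grouped by name and carry no replicate numbers. Because scaled values are not counts, log2(value + 5) was fitted with limma 3.58.1 in R 4.3.3 (variance prior with a trend), using 1 coefficient per group over the 8 libraries and genes of 60 or more in 2 or more libraries, and p-values were adjusted by Benjamini-Hochberg within each contrast. The pseudocount of 5 understates changes of low genes. The 4131 rows with clone-derived names, whose low values follow the step of another library, were left out, and of the 97 names on more than 1 row the row with the largest total was used. Exon lengths and positions came from GENCODE M21, which holds 99.7% of the gene identifiers, and promoters from RefSeq. The step of low values gave the number of reads per library, and 3 reads are worth 1.8 to 8.6 in Tconv and 13.1 to 31.3 in Treg libraries. With 2 libraries per group no test by relabelling could reach a small p-value. The members, lists and motifs were chosen with earlier results of these data known. Named genes were the members, all listed relatives, every partner or lineage gene called past 2-fold with CD70 plus up to 3 others with the largest change per list, and the 3 genes most correlated with a member called past 2-fold. Fyn, Lck, Prkcq, Cxcr5, Icos, Il21 and the genes named from the cell type markers were named beyond this, after their values were seen. The procedure was tested on simulated data. A few genes of the lists are left out and are not reported here. Other settings tried were pseudocounts of 1 and 20, the minimum left out, set on the mean (60) or set at over 10 in all libraries, median-of-ratios scaling, quantile normalization, clone-named rows kept, limma-voom on recovered reads, the libraries of a contrast alone, and leaving out each library.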

Additional observations from a re-analysis of the deposited data

Results flagged for a closer look

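None of the 8 members was called by the test of the difference between the CD70 responses of Tregs and Tconvs (limma), where 1.02% of all genes were. Of the members 4 had an unadjusted p-value under 0.05, against 10.7% of all genes. Of the 8 lineage genes tested beside them, 1 was called, Pdcd1, the gene of PD-1. Its CD70Tg libraries stood at 3812 and 5157 against 1867 and 547 in control Tconvs, and at 1892 and 1800 against 1835 and 1826 in control Tregs. The response of Tregs minus that of Tconvs was -2.11 ± 0.48 on the log2 scale (limma, adjusted p = 0.042). It was called in 6 of the 17 alternatives. It was -1.23 (adjusted p = 0.0056) without the second and -3.00 (adjusted p = 1.9e-07) without the first control Tconv library. The call was lost without the second CD70Tg Tconv library (-1.90, adjusted p = 0.21), without any 1 of the 4 Treg libraries (-2.15 to -2.08, adjusted p = 0.088 to 0.13), with a pseudocount of 1 (adjusted p = 0.064), no minimum value (0.42), median-of-ratios scaling (0.1), quantile normalization (0.1), clone-named rows kept (0.053) and limma-voom (0.21). The control Tconv libraries themselves lay far apart in Pdcd1, and the part of this in the result was not tested. Of the cell type markers, 4 were called for the same difference, where 1.02% of all genes were. They were 2 of 7 tested markers of macrophages, monocytes and dendritic cells, 1 of 2 plasma cell markers and 1 of 4 Treg markers. None was called in the other marker lists. Itgam was at 2.09 (adjusted p = 0.0087, called in 15 of 17 alternatives, but not with no minimum value or without the first control Treg library). Irf4 was at -1.39 (adjusted p = 0.033, 7 of 17), with -0.91 (adjusted p = 0.046) without the second control Tconv library. Lyz2 was at 1.20 (adjusted p = 0.041, 9 of 17), from 788 and 835 to 436 and 643 in Tconvs and from 641 and 872 to 1181 and 1077 in Tregs. Ctla4 was at -1.05 (adjusted p = 0.041, 7 of 17), from 493 and 496 to 663 and 1090 in Tconvs and from 10142 and 10898 to 8453 and 8890 in Tregs, and at -0.70 (adjusted p = 0.068) without the second CD70Tg Tconv library. For Irf4 and Ctla4 the call was lost without any 1 of the 4 Treg libraries (adjusted p = 0.088 to 0.18) or without the second CD70Tg Tconv library (adjusted p = 0.15 for Irf4), and for Ctla4 also without the second control Tconv library (adjusted p = 0.055). For Lyz2 it was lost without the first control or either CD70Tg Treg library and without the second control or the first CD70Tg Tconv library (0.92 to 1.27, adjusted p = 0.072 to 0.23). Groups of 2 libraries are too small for a test of single libraries that stand apart.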

How the results depend on the processing

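Over the 8 members and 5 contrasts, 650 refitted log2 fold changes kept direction and side of the threshold, 22 came to pass it, 23 no longer did and 17 changed sign. For 24 other genes named with a test above the minimum value, 636 kept both, 123 no longer passed, 16 came to pass and 3 changed sign. With no minimum value the calls of Pik3r1 and Rasa1 in Tconvs, of Dok1, Prkcq, Tbx21, Cd8a, Klrb1c, Itgam, H2-Ab1 and Csf1r in Tregs and of Pdcd1, Zbtb16, Bcl6, Cd8b1, Klrb1c, Itgax, Itgam and Irf4 in Tconvs were lost (adjusted p = 0.054 to 0.35). The counts of called members at any fold moved as follows. In Tregs, 0 became 1 with median-of-ratios scaling and 2 with the contrast's libraries alone. In Tconvs, 3 became 4, with Sh2d1a, under median-of-ratios scaling, quantile normalization and limma-voom (adjusted p = 0.022 to 0.039), 0 with no minimum value, where many more genes are tested, 1 with the contrast's libraries alone and 1 to 4 when libraries were left out. It was 1 without the second control, the second CD70Tg Tconv or either CD70Tg Treg library. For the difference, 0 became up to 3 (0 to 3 over libraries left out). Between the subsets of control mice, 1 became 2 with median-of-ratios scaling, 3 with quantile normalization, 2 with limma-voom, 3 with the contrast's libraries alone and 1 to 3 when libraries were left out. Past 2-fold, the 1 call in Tconvs became 0 with no minimum value and 1 to 2 over libraries left out, the 0 of the difference 0 to 1, and the 1 between the subsets of CD70Tg mice 0 to 1. With no minimum value the added genes also enter the estimate of the spread, and the causes of these moves were not tested.

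The 17 changes of sign among the members were in values that were not called, -0.35 (Slamf7 between the subsets of control mice) being the one farthest from 0. The 3 among other genes were in NK cell markers in Tconvs that were not called, where leaving out 1 library gave -0.53 to 0.01 for Klrd1 and -0.74 to 0.05 for Klrk1 (also 0.03). With 1 library left out, Cd48 gave -0.11 to 0.12 in Tregs (-0.07 as another change of sign) and -0.06 to 0.17 between the subsets of CD70Tg mice (also -0.05). Ly9 gave -0.08 to 0.02 in Tregs (also 0.00, and 0.01 with median-of-ratios scaling), -0.18 to 0.00 in Tconvs, -0.03 to 0.15 for the difference and -0.18 to 0.00 between the subsets of CD70Tg mice. Slamf6 gave -0.08 to 0.20 for the difference (also -0.03), -0.17 to 0.11 between the subsets of control mice (also 0.06) and -0.02 to 0.08 between those of CD70Tg mice (also -0.00), and Slamf7 gave -0.78 to 0.09 between the subsets of control mice. Over all settings, the calls among all genes ranged from 365 to 1992 in Tconvs, 259 to 1615 in Tregs and 0 to 269 for the difference. No paired analysis was possible because the columns of the table carry no replicate numbers. Depth limits Slamf7 in Tregs and the genes at or under the value of 3 reads.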
